A study of Homo sapiens with 8 samples.

Results

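The HOX genes of the 4 human HOX clusters were followed through a short arsenite stress. Members were the genes with a coding transcript whose symbol was HOXA, HOXB, HOXC or HOXD and a number, which gave 39 of 19964 genes: 11 in the HOXA cluster, 10 in HOXB, 9 in HOXC and 9 in HOXD. Each gene was represented by the transcript with the most ribo-seq reads on its coding sequence (CDS) in control, which involved a choice for 5 members, while the other 34 had 1 coding transcript. HOXB2 was chosen by its rise in translation and HOXD4 by its fall in mRNA, so that their values in the arsenite comparisons are given as a description.

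The cells were Hek293T, an established line derived from human embryonic kidney that carries the SV40 large T antigen. They received either vehicle (control) or 40 µM sodium arsenite and were harvested after 30 min. Each condition was profiled by ribo-seq, which sequences the mRNA fragments protected by ribosomes, and by mRNA-seq of randomly fragmented poly(A) RNA, in 2 independent biological replicates, so that there were 8 libraries. Nothing but the arsenite differed between the groups by their labels, and all came from the same line grown in DMEM.

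HOX genes encode homeodomain transcription factors that give cells their position along the body axis. Within a cluster they lie in the order of their expression domains, from paralog group 1, expressed furthest towards the head, to paralog group 13 at the tail end, and genes of the same number in different clusters are paralogs. Cultured cells often keep a HOX pattern that reflects their origin, and the paralogs of group 11 are required for the development of the kidney. HOX proteins bind DNA together with cofactors of the PBX, MEIS and PKNOX families, and their clusters are silenced by Polycomb and kept active by Trithorax proteins. Arsenite is known to lead to phosphorylation of eIF2, which lowers initiation on most mRNAs.

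The libraries differed in depth. The mRNA-seq libraries held between 3993293 and 21724945 reads on the transcripts used, and the ribo-seq libraries between 1023935 and 7270196, with fewer reads in replicate 1 than in replicate 2 in every group. Markers of the kidney and HEK lineage were present, with all 8 detected in control replicate 2 and a summed level of 103 and 134 mRNA-seq counts per 1000000 (CPM) in the control replicates against 102 and 147 in arsenite. PAX8 had 1 read in control replicate 2 and 0 in control replicate 1. The 5 blood markers summed to 2.06 to 3.08 CPM with HBB, HBG1 and CD3E at 0 in all 4 libraries, the 4 fibroblast markers to 11.6 and 10.3 in control and 13.96 and 12.9 in arsenite, nearly all of it COL1A1, and the 3 endothelium markers to 0.805 to 1.54 with CDH5 at 0. CPM in this text are scaled by TMM, which sets the bulk of mRNAs equal between libraries.

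HOX genes of all 4 clusters were expressed in control cells. Over both control libraries, 38 of 39 members had at least 1 mRNA-seq read on the CDS, 36 had at least 10 and 26 had at least 100. HOXB1, the most anterior HOXB gene, had 0 reads in all libraries of both kinds, which allows up to 0.212 mRNA-seq reads per 1000000 CDS reads in control. HOXC12 and HOXD12 were near this floor as well, with 1 and 8 mRNA-seq reads for HOXC12 and 1 and 3 for HOXD12 in the control replicates. These intervals and limits cover counting error only.

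The reads were spread over the clusters, with most on genes of the posterior groups. Of the HOX mRNA-seq reads on CDS in control, 30.5% fell in HOXA, 27.1% in HOXB, 17.5% in HOXC and 24.9% in HOXD. The shares of HOXB and HOXD moved between the replicates, from 21.1% to 28.3% for HOXB and from 30.1% to 23.8% for HOXD. The 16 members of paralog groups 9 to 13 took 59.2% of the HOX mRNA-seq reads and 74.5% of the HOX footprints. The 8 members of groups 1 to 3 took 11.3% of the mRNA-seq reads and 3.92% of the footprints. Since CDS lengths were not used, these are shares of reads and not of mRNA molecules, and no level of one member was set against that of another.

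Every cluster held members above and members below 100 mRNA-seq CDS reads in control. At least 100 mRNA-seq CDS reads in control were found for 9 of 11 HOXA, 7 of 10 HOXB, 6 of 9 HOXC and 4 of 9 HOXD genes. At least 100 footprints were found for 11 of the 16 members in groups 9 to 13, for 3 of 15 in groups 4 to 8 and for 0 of 8 in groups 1 to 3. The member with the most CDS reads was HOXD13, a gene of digit formation, in all 4 mRNA-seq libraries.

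Translation efficiency (TE) in control was asked first, as the ratio of footprints to mRNA-seq reads on the same CDS, relative to the bulk of mRNAs. A few members carried few ribosomes for their mRNA. Of 26 members tested (mean of at least 10 counts), 4 were lower than the bulk (15.4%) and 0 were higher by the quasi-likelihood test of edgeR, adjusted over all genes after Benjamini and Hochberg. Among all 10611 genes tested, 13.6% were called lower and 8.39% higher, so that the share of low members was near that of all genes. Both shares leave out genes with too few footprints for the test. At an unadjusted p under 0.05, 1 member was higher and 8 were lower by edgeR, against 16.2% and 20.2% of all genes. DESeq2, which gave an adjusted p for 20 of the 26, called 0 higher and 3 lower, against 8.17% and 10.1% of 9582 genes. The median over the 26 members was −0.33 on the log2 scale against 0.01 over all genes tested, and it was −0.78 without replicate 2. With mRNA-seq reads over the whole transcript it was −0.98, against −0.02 over all genes, and 14 of 26 members were called lower, against 19.1% of all genes. That ratio counts UTR reads on the mRNA-seq side only, so that UTR length does not cancel. In control replicates 1 and 2, HOX members had 40.3% and 35.3% of mRNA-seq reads on the CDS, against 69.0% and 58.5% for all genes. The part of this in the lower values was not tested.

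HOXD10, a posterior gene of limb and lumbar motor neuron patterning, had the lowest value among the members tested. It had 87 and 363 mRNA-seq reads on its CDS in control replicates 1 and 2, but 5 and 16 footprints. Its baseline TE was −3.50 on the log2 scale (SE 0.436, adjusted p = 0.000235, edgeR), with −3.17 and −3.61 in the replicates. It is a gene with 1 coding transcript, so no choice by ribo-seq reads was involved. In arsenite it had 107 and 360 CDS reads and 2 and 9 footprints, too few for a test of its change in TE.

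HOXC4, HOXC6 and HOXA3 were the other members called low. HOXC4 had 64 and 491 CDS reads of mRNA-seq against 9 and 52 footprints in control, and a baseline TE of −2.23 (SE 0.385, adjusted p = 0.00194, edgeR). HOXC6 had 22 and 184 CDS reads against 0 and 26 footprints, with a baseline TE of −2.37 (SE 0.577, adjusted p = 0.0120, edgeR). HOXA3, required for the thymus and parathyroid, had 38 and 266 CDS reads against 8 and 55 footprints, with −1.39 (SE 0.406, adjusted p = 0.0273, edgeR). In all 3 the value lay below 0 in both replicates. Each has 2 coding transcripts, HOXC4, HOXC6 and HOXC5 overlap in the annotation, as do HOXA3 and HOXA4, and reads that fit more than 1 gene had been discarded. Among the 22 tested members with 1 coding transcript, HOXD10 alone was called.

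The other 22 members tested did not pass the test. At an unadjusted p under 0.05, HOXA13 was above the bulk and HOXA5, HOXB8, HOXC10 and HOXD3 were below it by edgeR. By position, the median baseline TE was −1.23 for the 3 tested members of groups 1 to 3, −0.71 for the 10 of groups 4 to 8 and −0.22 for the 13 of groups 9 to 13. This order is a description of these members, since the spread within each set was wide. HOXA13, which acts in the limb tips and the genital tract, had the highest value at 0.89 (SE 0.374), with 30 and 138 CDS reads of mRNA-seq and 24 and 164 footprints in control, and it did not pass the test (adjusted p = 0.101, edgeR). HOXA5, a gene of lung and axial skeleton, had 76 and 513 CDS reads against 12 and 183 footprints and a value of −1.04 (adjusted p = 0.0571, edgeR), and HOXB8 had −1.19 (adjusted p = 0.0551, edgeR). Both were called low with upper-quartile normalization, with a mean of at least 30 counts, with no filter and with mRNA-seq reads over the whole transcript. The 13 members that were not tested included HOXB3, which had 28 and 299 CDS reads but 3 and 9 footprints. The filter asks for footprints, so that members with few ribosomes for their mRNA could drop out. HOXD9 had 15 and 80 CDS reads with 0 and 1 footprints, and HOXB5 had 11 and 68 with 0 and 2. By contrast, HOXD1 had 1 and 9 CDS reads with 1 and 8 footprints.

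**Figure D1:**
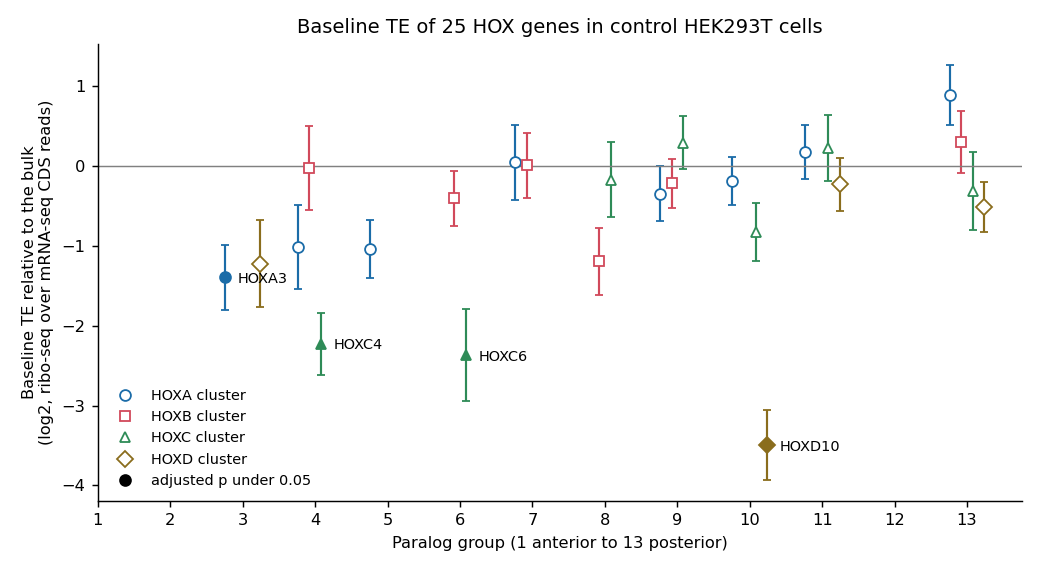
Baseline TE in control for 25 of the 26 members tested, as the log2 ratio of ribo-seq to mRNA-seq CDS reads relative to the bulk of mRNAs (y axis), by paralog group (x axis). Points are estimates over 2 replicates with 1 SE, colours and shapes mark the cluster, and filled points passed the test: HOXA3, HOXC4, HOXC6 and HOXD10, all below 0.

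The next question was whether arsenite changed the HOX mRNAs. Of 36 members tested, 5 were lower in arsenite (13.9%) and 0 were higher, while among all 12600 genes 1.78% were called lower and 4.08% higher. The 5 were HOXD4, HOXB13, HOXA9, HOXB2 and HOXA11, all by less than a factor of 2. Without HOXD4 and HOXB2 it was 3 of 34 (8.82%). At an unadjusted p under 0.05, 0 members were higher and 9 lower by edgeR, against 10.3% and 8.04% of all genes. DESeq2 called 0 in either direction, against 2.41% higher and 0.181% lower of 3317 genes, but gave an adjusted p for 3 of the 36 members, none of them among the 5. In the design without the replicate block, 0 members and 0 of all genes were called (27 genes were higher and 1 lower at an unadjusted p under 0.05). In bulk libraries, fewer cells with an mRNA and less of it per cell cannot be told apart.

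The mRNA of HOXD4, which patterns the upper cervical vertebrae, fell most. In replicates 1 and 2 the control libraries held 34 and 270 reads and the arsenite libraries 30 and 166, or 8.73 and 13.4 against 7.76 and 7.42 CPM. The arsenite libraries lay below both control libraries, and the replicates differed in size, with a log2 change of −0.17 in replicate 1 and −0.85 in replicate 2. The estimate over both was −0.75 (SE 0.139). In replicate 2 all regions of the transcript had fewer reads, with 72 against 39 in the leader, 138 against 99 in the CDS and 60 against 28 in the 3′ UTR, before scaling. With reads on the CDS alone the change was −0.58 and was not called. HOXD4 had 0 and 4 footprints in control and 0 and 1 in arsenite, so its translation could not be followed. Its annotated span overlaps that of HOXD3, whose mRNA changed by −0.01 (SE 0.152).

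HOXB13, a gene of the prostate and tail, fell by 0.41 on the log2 scale (SE 0.101, adjusted p = 0.00293, edgeR). It had 93 and 487 mRNA-seq reads in control against 84 and 389 in arsenite, or 23.9 and 24.2 against 21.7 and 17.4 CPM. Both arsenite libraries were below both control libraries. The change was −0.14 in replicate 1 and −0.48 in replicate 2.

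HOXA9 and HOXA11 fell in both replicates, with groups that overlapped. HOXA9, which maintains blood stem cells and is high in some leukaemias, had 69 and 450 reads in control against 42 and 406 in arsenite, or 17.7 and 22.4 against 10.9 and 18.2 CPM. Its log2 change was −0.36 (SE 0.106, adjusted p = 0.0188, edgeR). HOXA11, of the kidney and forearm, had 120 and 1027 reads against 90 and 985, or 30.8 and 51.1 against 23.3 and 44.0 CPM, and changed by −0.24 (SE 0.0779, adjusted p = 0.0390, edgeR). For both genes the level in arsenite replicate 2 was above that in control replicate 1, and the fall was seen within each replicate. HOXB13, HOXA9 and HOXA11 were not called when only CDS reads of mRNA-seq were used (adjusted p = 0.209, 0.0800 and 0.207, edgeR). Over all alternatives the adjusted p ran from 0.00235 for HOXB13, 0.0168 for HOXA9 and 0.0353 for HOXA11 up to 0.999915, the value of all 3 without the replicate block.

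The regions just upstream of the genes that fell are shown because these mRNAs moved in the same direction. RefSeq start sites of GRCh38.p14 gave entries for 20 of 39 members, among them HOXD4, HOXA9 and HOXA11. Below are the 250 bases before the start, read 5′ to 3′ on the gene's strand. Capitals mark matches, on either strand, to TATAAA (the TATA box), CCAAT (the CCAAT box) and GGGCGG (the GC box). These are chr2:176151300-176151549 on the plus strand for HOXD4, chr7:27165538-27165787 on the minus strand for HOXA9 and chr7:27185233-27185482 on the minus strand for HOXA11.
HOXD4: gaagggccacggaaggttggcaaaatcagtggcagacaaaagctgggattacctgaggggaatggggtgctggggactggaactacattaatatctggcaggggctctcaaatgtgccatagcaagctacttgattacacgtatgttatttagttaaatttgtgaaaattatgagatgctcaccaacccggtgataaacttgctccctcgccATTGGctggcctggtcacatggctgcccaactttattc
HOXA9: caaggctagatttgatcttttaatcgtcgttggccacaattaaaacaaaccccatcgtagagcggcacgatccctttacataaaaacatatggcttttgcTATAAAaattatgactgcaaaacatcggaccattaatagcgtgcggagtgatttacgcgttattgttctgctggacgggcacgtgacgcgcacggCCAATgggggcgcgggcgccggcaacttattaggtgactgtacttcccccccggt
HOXA11: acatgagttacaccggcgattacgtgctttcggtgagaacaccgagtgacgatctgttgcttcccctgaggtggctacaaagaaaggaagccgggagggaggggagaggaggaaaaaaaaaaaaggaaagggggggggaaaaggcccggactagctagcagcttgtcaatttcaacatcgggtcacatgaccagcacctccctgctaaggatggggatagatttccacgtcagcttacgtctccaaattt
The HOXA9 window held TATAAA and CCAAT, that of HOXD4 held CCAAT on the opposite strand, and that of HOXA11 held none of the 3 motifs. Of 35116 windows of this length in the table, 10.7% held TATAAA, 32.0% CCAAT and 42.6% GGGCGG. Among the 20 members with an entry, counting a gene once over all its start sites, 4 held TATAAA, 17 CCAAT and 10 GGGCGG. These 20 genes had 27 entries, and a gene with several start sites had more chances of a match. HOXC4 and HOXC5 had the same window, which entered the count for both genes. The counts per gene therefore cannot be set against the shares per window. A match describes letters and not a bound site.

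The remaining HOX mRNAs did not pass the test. Of the 36 members, 26 were below 0 (72.2%, against 50.5% of all genes) and 16 were below 0 in both replicates, against 3689 of 12600 genes. Their median was −0.09 on the log2 scale against −0.002 over all genes tested. This median was −0.05 without replicate 2, by DESeq2 and with no replicate block. Members with many reads stood near 0. HOXB9 had 832 and 3931 reads in control against 839 and 4552 in arsenite, with a change of 0.05 (SE 0.0527). HOXD13 had 517 and 3002 against 476 and 3146, with −0.09 (SE 0.0562). HOXD11, which acts with HOXA11 in the kidney, had 146 and 687 against 173 and 815 and the highest value of all members at 0.13 (SE 0.0820).

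The last question was how arsenite changed the ribosomes on HOX mRNAs, relative to the bulk. HOX footprints made up a larger part of all footprints in arsenite in both replicates, while HOX mRNA did not. Summed over the 39 members, CDS footprints went from 295 to 419 per 1000000 CDS reads in replicate 1 and from 497 to 650 in replicate 2, a ratio of 1.42 and 1.31. These values are shares of the library's CDS reads without TMM. The mRNA-seq reads on the same CDS went from 644 to 628 and from 803 to 758, a ratio of 0.976 and 0.945. Without HOXB2 and HOXA10 the footprint ratios were 1.27 and 1.26. The arsenite value of replicate 1 was below the control value of replicate 2, so the groups overlapped and the difference was seen within replicates only. No test was run on these sums. Fewer ribosomes on all other mRNAs and more on HOX mRNAs cannot be told apart in such shares. The authors reported a strong general fall in translation with this treatment, which shares and TMM take out. Higher occupancy or TE in this text is thus relative to that fall, and no absolute gain of ribosomes was measured.

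**Figure D2:**
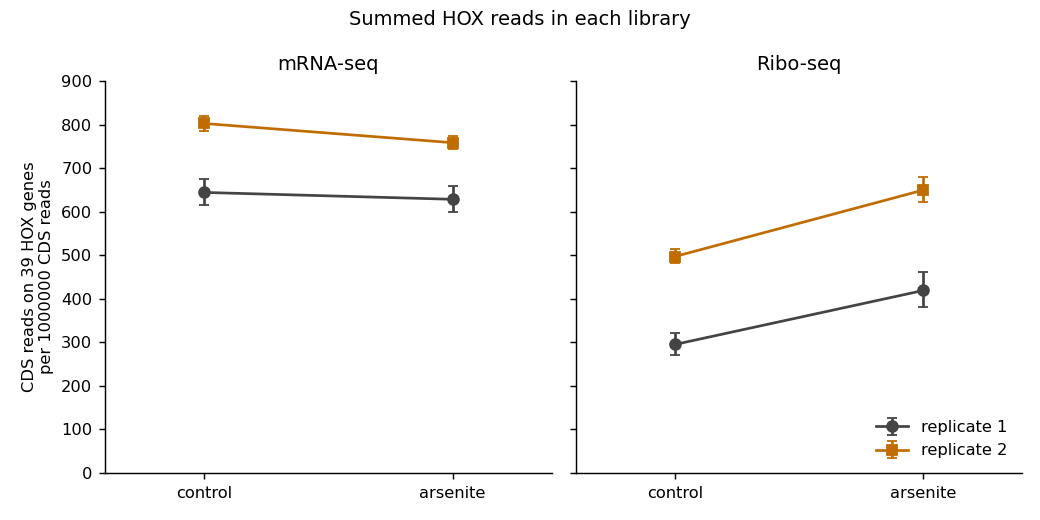
CDS reads on the 39 HOX genes per 1000000 CDS reads of each library (y axis), for control and arsenite, in mRNA-seq and ribo-seq. Bars are 95% Wilson intervals, which cover counting error only, and lines join the libraries of a replicate: footprints went up from 295 to 419 and from 497 to 650, and mRNA-seq reads stayed within 628 to 803.

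Member by member, most estimates of occupancy and TE were above 0 and few passed the test. Of 25 members tested for ribosome occupancy, 2 were higher (HOXB2 and HOXA10, 8%) and 0 lower, against 1.42% higher and 1.35% lower among all 10291 genes. TE, which takes the change in mRNA out in 1 model over both assays, gave the same 2 members higher and 0 lower of 25, against 1.03% higher and 1.12% lower of 10273 genes. Without HOXB2 it was 1 of 24 (4.17%) in both. At an unadjusted p under 0.05, 8 members were higher in TE and 0 lower by edgeR, against 10% and 11.3% of all genes. In occupancy 6 were higher and 0 lower, against 8.65% and 8.95%. DESeq2 gave an adjusted p for 4 of the 25 members in TE and called HOXA10 alone, against 0.826% higher and 1.18% lower of 5692 genes. In occupancy it gave an adjusted p for 3 and called 0, against 0.568% and 0.49% of 5103 genes. Without the replicate block, 0 members and 0 of all genes were called in either. At an unadjusted p under 0.05, 1 member was then higher in each, as were 67 of all genes in TE and 79 in occupancy.

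The median TE change over the 25 members tested was 0.46 against −0.01 over all genes. Above 0 were 22 members (88.0%, against 48.6% of all genes), and 17 were above 0 in both replicates, against 3030 of 10273 genes. HOXB2 passed the filter only through its arsenite footprints, and HOXB4 and HOXC8 had fewer than 10 footprints on average in arsenite. For the 24 members with a control mean of at least 10 footprints, the median was 0.39 and 21 were above 0. By cluster the median TE change was 0.92 for the 7 tested HOXB members, 0.46 for the 7 of HOXC, 0.32 for the 9 of HOXA and 0.09 for the 2 of HOXD. Without HOXB2, which was chosen by its rise, the median of the 6 other HOXB members was 0.86, and 6 of 6 were above 0 in both replicates. Of these 6, 0 were called, against 1.03% called higher among all genes. HOXB7 in replicate 1 and HOXB6 in replicate 2 were close to 0, at 0.03 and 0.04. The 14 members not tested had at most 32 footprints over the 4 ribo-seq libraries, and HOXB1, HOXA2 and HOXB5 had 0 in arsenite, which allows up to 0.752 per 1000000 CDS reads.

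**Figure D3:**
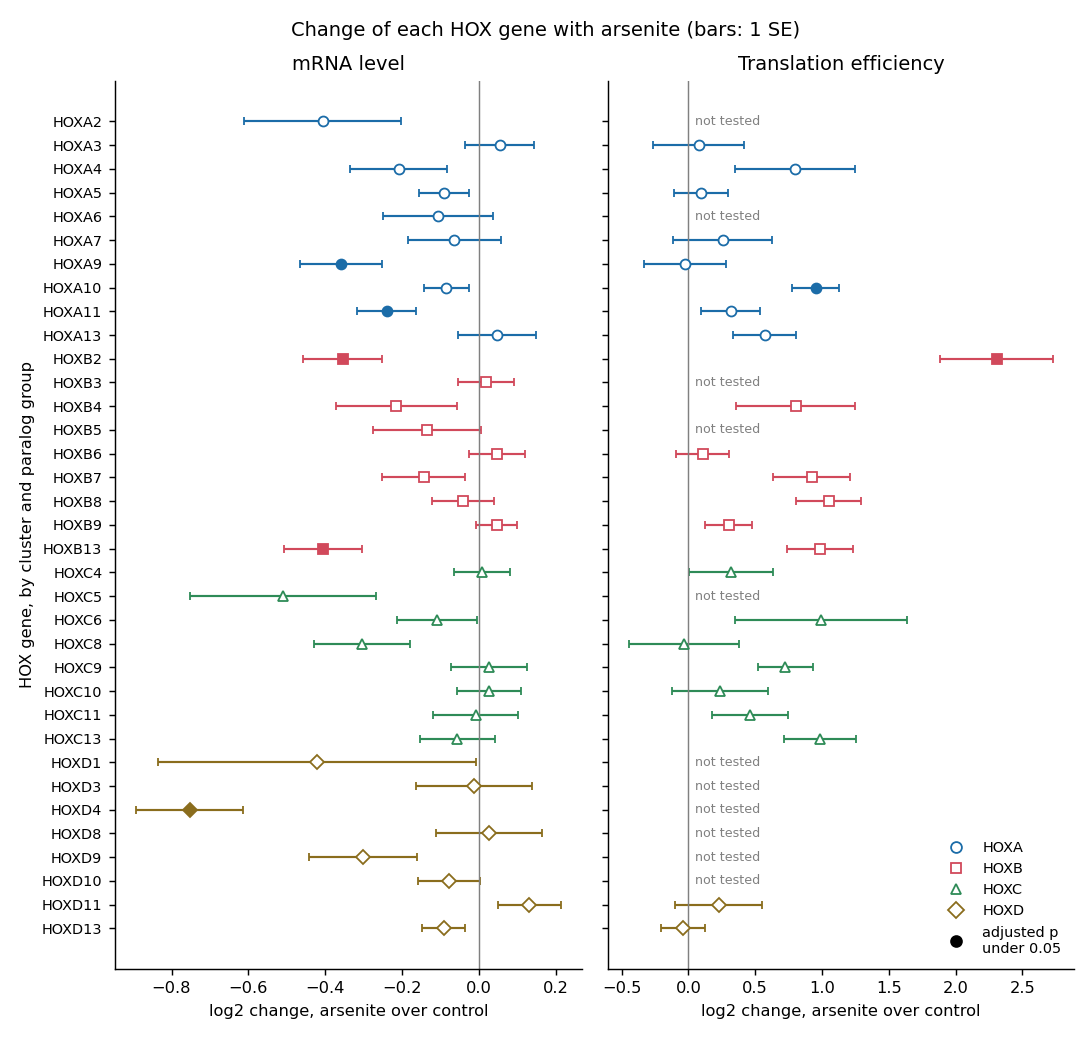
Log2 change with arsenite over control in mRNA level (left, 35 of 36 members tested) and TE (right, 24 of 25), relative to the bulk of mRNAs, with 1 SE, by cluster and paralog group. Filled points passed the test, and HOXB2 (TE) and HOXD4 (mRNA) were chosen by these changes: mRNA estimates lie between −0.75 and 0.13, and 21 of the 24 TE estimates shown lie above 0.

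HOXB2, a hindbrain gene of the anterior HOXB cluster, was selected on its rise in translation. It had 4 and 14 footprints on its CDS in control and 5 and 26 in arsenite, from libraries with fewer footprints in arsenite, or 2.31 and 1.82 against 5.31 and 7.95 CPM. Both arsenite libraries were above both controls. Its mRNA went down, with 57 and 516 reads in control against 42 and 452 in arsenite, or 14.6 and 25.7 against 10.9 and 20.2 CPM, a log2 change of −0.35 (SE 0.103). The log2 change was 1.89 in occupancy (SE 0.495) and 2.31 in TE (SE 0.423), with 1.62 and 2.45 in the replicates. These rest on 49 footprints in all, with 0 in the leader of any library. Its leader had 0 and 2 mRNA-seq reads in control and 0 and 0 in arsenite, too few to read anything into the absence of footprints there. In control HOXB2 was below the count minimum for baseline TE.

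HOXA10, a gene of the uterus and of blood progenitors, rose in occupancy and TE relative to the bulk of mRNAs. It had 97 and 317 CDS footprints in control and 110 and 220 in arsenite, or 55.9 and 41.1 against 117 and 67.3 CPM. Both arsenite libraries were above both controls. Its mRNA had 461 and 2581 reads in control against 406 and 2766 in arsenite and changed by −0.08 (SE 0.0579). The change in occupancy was 0.87 (SE 0.212, adjusted p = 0.0293, edgeR) and that in TE 0.95 (SE 0.173, adjusted p = 0.0339, edgeR), with 1.24 and 0.77 in the replicates. With CDS reads of mRNA-seq in place of the transcript's reads the TE change was 0.95 and not called (adjusted p = 0.0720, edgeR). Over all alternatives its adjusted p for TE ran from 0.00200 to 0.99998.

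The HOXA10 reads were distributed differently in the replicates. The gene has a further, non-coding transcript, which was counted separately and can share reads with the coding transcript. Replicate 1 had 86 footprints on it in control and 106 in arsenite, next to totals of 97 and 112 on the coding transcript. Replicate 2 had 112 and 72, next to 327 and 241. At least 11 footprints in control and 6 in arsenite were thus on the coding transcript alone in replicate 1, with 215 and 169 for replicate 2. Divided by all CDS footprints of the library, these minimum counts changed by a ratio of 1.01 in replicate 1 and 1.90 in replicate 2, and the counts on the non-coding transcript by 2.29 and 1.56. The share of its mRNA-seq reads that fell on the CDS differed in the same way, 51.8% in control replicate 1 and 22.2% in replicate 2, the widest gap upwards among the 23 members with at least 50 reads in both. The part of this in the HOXA10 call was not tested.

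Several other members had higher TE estimates that missed the threshold. HOXB8, whose loss causes excessive grooming in mice, had 6 and 106 footprints in control and 5 and 93 in arsenite, or 3.46 and 13.8 against 5.31 and 28.4 CPM, a TE change of 1.05 (SE 0.242, adjusted p = 0.0546, edgeR). HOXB13 had 15 and 119 footprints against 13 and 75, or 8.64 and 15.4 against 13.8 and 22.9 CPM, while its mRNA fell, and its TE change was 0.99 (SE 0.245, adjusted p = 0.0640, edgeR). The groups overlapped in both genes, and in both the footprint CPM was higher in arsenite within each replicate. HOXC13, of hair and nail, changed by 0.98 (SE 0.268, adjusted p = 0.0811, edgeR) and had 4 and 103 footprints against 10 and 77. HOXB7 had 13 and 70 footprints against 7 and 56 and changed by 0.92 (SE 0.288, adjusted p = 0.111, edgeR), with 0.03 and 1.08 in the replicates. HOXC9, a gene of the thoracic region, had 35 and 199 against 23 and 151 and changed by 0.72 (SE 0.205, adjusted p = 0.0857, edgeR). Its mRNA had 76 and 473 reads in control against 70 and 546 in arsenite.

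HOXA13 had 24 and 164 footprints in control and 31 and 95 in arsenite, or 13.8 and 21.3 against 32.9 and 29.05 CPM, with groups that did not overlap. Its mRNA had 69 and 443 reads against 75 and 503. The TE change was 0.57 (SE 0.234) and did not pass the test (adjusted p = 0.204, edgeR).

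**Figure D4:**
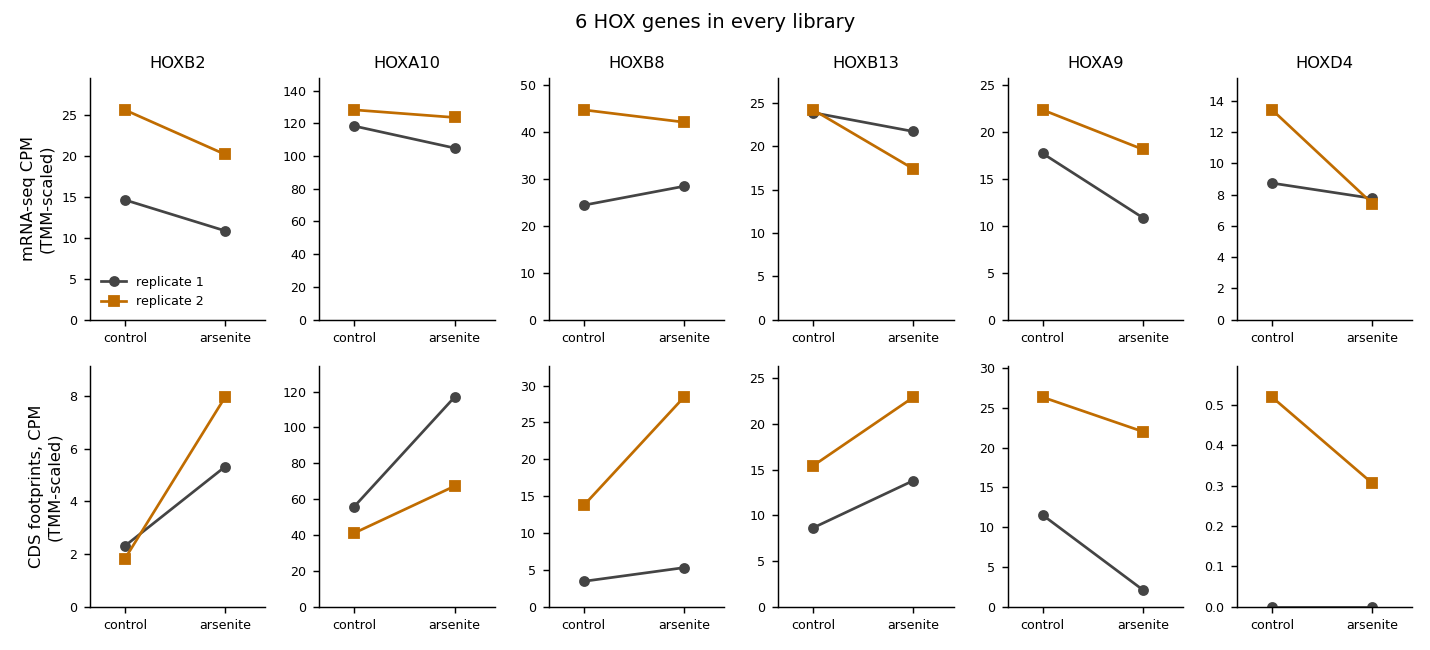
TMM-scaled mRNA-seq CPM (top row) and CPM of CDS footprints (bottom row) of 6 HOX genes in control and arsenite, with lines joining the libraries of a replicate and each y axis starting at 0. Footprints of HOXB2 and HOXA10 are higher in both arsenite libraries than in both controls, and mRNA of HOXD4 and HOXB13 is lower in both.

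Other members with many footprints gave no call. HOXD13 had 89 and 494 footprints in control and 47 and 184 in arsenite, a TE change of −0.04 (SE 0.165). HOXB9 had 51 and 419 against 42 and 211 and changed by 0.30 (SE 0.176). HOXA11 had 22 and 251 against 20 and 102 with 0.32 (SE 0.221). HOXB6, with 218 and 947 mRNA-seq reads in control against 216 and 1101 in arsenite, had 24 and 192 footprints against 17 and 87 and a TE change of 0.11 (SE 0.197). HOXA5 had 312 and 1528 mRNA-seq reads against 293 and 1592, and 12 and 183 footprints against 7 and 77, with 0.09 (SE 0.204). None of the 5 passed the test, and each estimate was within 2 SE of 0.

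In 3 members the replicates disagreed. HOXA9 had 20 and 203 footprints in control and 2 and 72 in arsenite, so that TE changed by −1.71 in replicate 1 and 0.05 in replicate 2, and by −0.03 (SE 0.306) over both. HOXD11 had 53 and 151 against 14 and 107, with −1.29 and 0.65 in the replicates and 0.23 (SE 0.325) over both. HOXC10, of lumbar motor neurons, had 115 and 725 mRNA-seq reads in control against 131 and 798 in arsenite, and 15 and 124 footprints against 26 and 47, with 1.48 and −0.14 in the replicates and 0.24 (SE 0.357) over both. No direction can be given for these genes.

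Of the 4 members called low in baseline TE, the 3 that could be tested gave no call for a change in TE. HOXA3 had 97 and 617 mRNA-seq reads in control against 86 and 734 in arsenite, and 8 and 55 footprints against 6 and 24, a TE change of 0.08 (SE 0.341). HOXC4 had 130 and 1189 mRNA-seq reads against 145 and 1302, and 9 and 52 footprints against 6 and 28, with 0.32 (SE 0.315). HOXC6 had 56 and 450 mRNA-seq reads against 60 and 452, and 0 and 26 footprints against 7 and 14, with 0.99 (SE 0.645). HOXD10 had 172 and 773 mRNA-seq reads against 177 and 792. The estimates of all 3 genes tested were above 0, with errors that included 0 within 2 SE.

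Footprints outside the CDS were few in HOX mRNAs, yet made up a larger share than in all genes, a difference on which no test was run. Leader footprints were 2.58% and 2.12% of the HOX footprints in control and 2.70% and 3.75% in arsenite, against 0.392% and 0.795% in control and 0.490% and 1.52% in arsenite for all genes. They rested on 15 and 79 reads in control against 12 and 80 in arsenite, and came from few members. HOXC4 had 0 and 15 leader footprints in control and 0 and 17 in arsenite, HOXA11 had 0 and 15 against 1 and 12, HOXB6 had 11 and 13 against 4 and 6, and HOXB3 had 0 and 10 against 1 and 10. In HOXC4 this was 19.7% of its control footprints (95% Wilson interval 12.3% to 30.0%) and in HOXB3 43.5% (25.6% to 63.2%). HOXB2, HOXA9 and HOXD4 had 0 in every library, as had further members such as HOXA5, HOXA13 and HOXB7.

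Footprints in the 3′ UTR were 1.38% and 2.01% of HOX footprints in control and 1.57% and 5.81% in arsenite, against 0.102% and 0.204% and then 0.201% and 0.755% for all genes. HOXA10 had 0 and 9 in control and 2 and 21 in arsenite, HOXD11 had 1 and 21 against 1 and 18, HOXB6 had 0 and 14 against 1 and 16, and HOXB9 had 0 and 6 against 1 and 16. Replicate 1 held at most 2 of these reads per library in any of these 4 genes. HOX mRNA-seq reads also lay in the 3′ UTR more often, 55.4% to 60.7% over the 4 libraries against 26.2% to 36.5% of all genes.

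Genes that act with or on the HOX clusters were tested in the same way. Of the 9 HOX cofactor genes of the PBX, MEIS and PKNOX families, 9 were tested for mRNA and 7 for TE. By edgeR 0 were called in either, and DESeq2 called 0. At an unadjusted edgeR p under 0.05, 1 was lower in mRNA and 1 higher in TE, against 8.04% and 10% of all genes. The median change was −0.01 in mRNA and 0.29 in TE. In control, PBX3 was the single cofactor of 7 called low in TE, against 13.6% of all genes, at −1.31 (SE 0.356, adjusted p = 0.0203, edgeR). DESeq2, with an adjusted p for all 7, called 0. Of 27 Polycomb genes, 2 were higher in mRNA in arsenite, against 4.08% of all genes. Among the 2 was EZH2, the main H3K27 methyltransferase, by 0.20 (SE 0.0544, adjusted p = 0.00736, edgeR). DESeq2 called 0 Polycomb genes in mRNA, with an adjusted p for 12 of the 27. PCGF5, a subunit of variant Polycomb complex 1, was the single Polycomb gene of 25 called in TE, at −1.50 (SE 0.291, adjusted p = 0.0374, edgeR), and in occupancy, at −1.53. Among all genes 1.12% were called lower in TE and 1.35% in occupancy by edgeR. DESeq2 called PCGF5 in TE and called 0 Polycomb genes in occupancy. The median TE change of the Polycomb genes was −0.20. At baseline 2 of the 25 were higher in TE and 6 lower by edgeR (8% and 24%, against 8.39% and 13.6% of all genes), and 1 and 4 by DESeq2. The lower genes included EZH1 at −1.95 (SE 0.345, adjusted p = 0.00220, edgeR), PHF1 at −2.58 (adjusted p = 0.00380, edgeR) and PHC1 at −1.52 (adjusted p = 0.00973, edgeR).

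Of 16 genes of Trithorax and MLL complexes, 3 were higher in mRNA, against 4.08% of all genes. They were HCFC1 by 0.20 (adjusted p = 0.00403, edgeR), KDM6A by 0.22 (adjusted p = 0.0379, edgeR) and RBBP5 by 0.20 (adjusted p = 0.0481, edgeR). DESeq2 called 0 in mRNA, with an adjusted p for 10 of the 16. By edgeR 0 of the 16 were called in TE, and 0 by DESeq2, with a median of 0.03. At an unadjusted edgeR p under 0.05, 4 were higher and 1 lower in TE, against 10% and 11.3% of all genes. At baseline 8 of the 16 were called low in TE by edgeR and 8 by DESeq2 (50%, against 13.6% of all genes by edgeR), among them MLL, the founding H3K4 methyltransferase of the group, at −1.78 (SE 0.305, adjusted p = 0.00185, edgeR), and the gene listed as MLL4 at −1.93 (SE 0.317, adjusted p = 0.00136, edgeR), and RBBP5, a shared subunit, was higher at 1.37 (SE 0.305). The retinoic acid, CDX and other upstream regulators, 18 genes of which 15 were tested for mRNA and 13 for TE, had 0 calls by edgeR and 0 by DESeq2. At an unadjusted edgeR p under 0.05, 2 were higher and 1 lower in mRNA, against 10.3% and 8.04% of all genes. In TE 2 were lower, against 11.3%. At baseline 2 of the 13 were higher in TE and 1 lower by edgeR, against 8.39% and 13.6% of all genes, and 1 and 0 by DESeq2. CTCF, which insulates the HOX clusters, was higher in TE at 0.93 (SE 0.290, adjusted p = 0.0354, edgeR), and RARG was lower at −1.30 (SE 0.438, adjusted p = 0.0488, edgeR).

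Non-coding RNAs of the clusters had reads in the mRNA-seq libraries of both conditions. A transcript of HOTAIR, from the HOXC cluster, had 40 and 401 reads in control against 36 and 420 in arsenite. HOTAIRM1, at the anterior end of HOXA, had 150 and 931 against 120 and 957. HOTTIP, at its posterior end, had 2 and 22 against 1 and 28. HOXA11-AS, antisense to HOXA11, had 78 and 455 against 49 and 470. The alignment kept only matches to the plus strand of each transcript. The microRNA genes of the clusters (MIR10A, MIR10B, MIR196A1, MIR196A2, MIR196B and MIR615) had at most 5 reads in any mRNA-seq library, which were made from poly(A) RNA. No test was run on these RNAs.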

How the data were processed

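Ribo-seq and mRNA-seq of Hek293T cells were analysed in 4 groups of 2 libraries, as labelled. The authors removed adapters with Cutadapt, set aside spike-in and rRNA reads, aligned the remainder to the plus strand of RefSeq transcripts with Bowtie 1.0.0, dropped reads fitting several genes, and added the MiSeq and HiSeq runs of replicate 2. The genome build behind the transcripts is not given in the sources used here. The deposited values are raw counts per transcript, split into leader, CDS and 3′ UTR for 35851 coding transcripts. Footprints in a range of monosome lengths were kept and assigned to an inferred A-site before counting, and discarding shared reads lowers the counts of overlapping genes and paralogs.

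The library totals and TMM factors were computed on 1 transcript per gene. Changes were tested with edgeR 4.0.16 (R 4.3.3), quasi-likelihood, where counts averaged 10 or more, at an adjusted p of 0.05 (Benjamini-Hochberg over all genes tested). mRNA level used reads over the transcript, occupancy CDS footprints, TE the interaction of assay and treatment, and baseline TE the CDS reads of both assays in control. SE is the log2 change divided by the square root of F. A prior count of 0.5 entered the changes within replicates. DESeq2 1.42.0 was an alternative, and its adjusted p was left empty where its filter gave none. Tables and figures used Python 3.11.15, pandas 2.3.3 and matplotlib 3.10.9. The scripts were tested on simulated data.

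The replicates had different adapters and sequencing, so the main design holds the replicate block. Deviations of same-numbered libraries from their group means correlated with r = 0.71 over genes in mRNA-seq and 0.69 in ribo-seq.

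The members and gene lists were chosen with earlier results of these data known. Values in every library were given for HOXB2, HOXD4, the 12 TE-tested members with the highest mean footprint count and every member past the threshold in any fit. HOXB7, HOXB8, HOXC13 and the region counts of further members were added after their values were seen, as was the set of promoters. From the other lists up to 3 called genes per fit were named. Reads per kilobase of coding length had been planned for the cluster shares, but coding lengths were not used here, so that shares of reads were given. The separate values of a few genes are not reported here.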

Additional observations from a re-analysis of the deposited data

How the results depend on the processing

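Upper-quartile normalization and the transcript with the most control mRNA-seq reads left the number of members called within 1.5 times in mRNA level, occupancy, TE and baseline TE. Calls depended on the replicate block: with no replicate block 0 members were called in mRNA level, 0 in occupancy, 0 in TE and 2 (lower) in baseline TE. Of all genes, 0 were called in the first 3, and 55 were higher and 322 lower of 10611 in baseline TE. DESeq2 called 0 members in mRNA level, 0 in occupancy and 1 in TE, with most adjusted p-values not given. When mRNA-seq was limited to CDS reads, 0 members were called in mRNA level and 1 in TE, and the median TE change was 0.57. With a mean of at least 30 counts 1 member was called in TE, since HOXB2 was no longer tested. With no filter on low counts 6 were called in TE and 13 in baseline TE, and the medians were 0.30 for TE and 0.31 for occupancy. The shares over all genes are not given for CDS reads alone, at least 30 counts or no filter. The counts of members called in these settings therefore cannot be set against a background. With mRNA-seq reads over the whole transcript, 14 were called lower in baseline TE, against 19.1% of all genes, with a median of −0.98. UTR reads then entered on the mRNA-seq side only, so that UTR length does not cancel. The cluster shares in this setting were 33.7% for HOXB and 15.3% for HOXC. Counting footprints over the whole transcript, the median occupancy change was 0.54. The cause of these shifts was not tested. Leaving out a replicate left no test. The medians then ranged from 0.39 to 0.49 for TE and from −0.78 to −0.27 for baseline TE, and the cluster shares from 30.3% to 31.9% for HOXA, 21.1% to 28.3% for HOXB, 16.8% to 17.6% for HOXC and 23.8% to 30.1% for HOXD. Depth limits TE, since 14 of 39 members had too few footprints to be tested.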
